A study of Mus musculus with 6 samples.

Results

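The aminoacyl-tRNA synthetases are the enzymes that attach each amino acid to its transfer RNA. The deposited table was searched by symbol for 20 genes of the cytosolic set and 16 genes of the mitochondrial set, whose symbols end in 2. All 36 were found among 19162 genes, and all 36 were abundant enough to be among the 13326 genes tested. Both groups were bone marrow cells of C57BL/6J mice stimulated with recombinant GM-CSF at 40 ng/mL for 4 days. The KCl group (libraries KCl 1, KCl 2 and KCl 4) also received an additional 34.7 mM potassium chloride, and the control group (control 1, control 2 and control 4) did not. The series calls the cells bone marrow MDSCs, that is myeloid-derived suppressor cells, immature myeloid cells that restrain T cells, while the sample labels call them bone marrow cells. The sources used here give neither the age of the mice nor what the replicates are, so a p-value measures the spread between these libraries, which may be technical. The question was whether the mRNAs of the synthetases differ under high potassium, and whether the cytosolic and mitochondrial sets do so alike.

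Each synthetase recognises an amino acid and the tRNAs that carry it, joins them with energy from ATP, and so fixes the genetic code at the ribosome. Mitochondria translate their own few mRNAs and import a separate set of synthetases, encoded in the nucleus. Several cytosolic synthetases are held together in the multisynthetase complex by the scaffold proteins encoded by Aimp1, Aimp2 and Eef1e1. When a synthetase lacks its amino acid, uncharged tRNA activates the kinase GCN2 (Eif2ak4), and the transcription factor ATF4 then raises many synthetase and amino acid genes.

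Library totals ranged from 14118724 to 21694831 counts. KCl 4 and control 4 were not independent of the other 4 libraries. Over 8231 genes, the log2 ratio of the mean level in these 2 libraries to that in the other 4 had an SD of 0.00953. Counting noise by itself would leave an SD of 0.0441, and for any of the 14 other pairs the SD was 0.123 to 0.262. What made the counts of this pair so regular is not recorded in the sources used here. P-values from all 6 libraries may be too small. Results are therefore also given without KCl 4 and control 4, a comparison of 2 libraries against 2. Of the 13326 genes, 3057 passed at an adjusted p of 0.05 with all 6 libraries. The 4 other libraries gave 62 of 13525.

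The synthetase mRNAs spanned a wide range of levels, given here as the authors' FPKM, which corrects for the gene length that the authors used. The cytosolic genes had a median level of 21.6 FPKM over the 6 libraries, from 8.30 for Qars (glutamine) to 95.4 for Nars (asparagine). The mitochondrial genes had a median level of 4.296 FPKM, from 0.496 for Wars2 (tryptophan) to 11.5 for Cars2 (cysteine). The level of 15 of the 20 cytosolic genes was above that of every mitochondrial gene. The exceptions were Cars, Wars, Farsa, Eprs and Qars, which lay among the upper mitochondrial genes. Qars had more counts than Wars in every library, 2218 against 931 in KCl 1, but a lower FPKM there, 8.58 against 10.2. Annotated exons cover 6572 bases for Qars and 3447 for Wars. The order of levels thus depends on the lengths behind the FPKM, which were not checked here.

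In the order of levels, most neighbours could not be told apart, since the ranges over the 6 libraries separated only 5 of 35 neighbouring genes. The breaks fell below Nars, below Hars (histidine), below Vars (valine), below Tars2 (threonine) and below Yars2 (tyrosine). Within an amino acid, the FPKM of the cytosolic gene divided by that of its mitochondrial partner was largest for asparagine, 99.1 in KCl and 106 in control. For cysteine the ratio was 0.940 in KCl and 0.935 in control, so Cars and Cars2 had nearly the same FPKM. Their counts differed, at 1219 for Cars and 396 for Cars2 in KCl 1, although their annotated exons cover 6583 and 7237 bases. These ratios, that for asparagine included, therefore depend on the gene lengths behind the FPKM, which were not checked here.

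**Figure D1:**
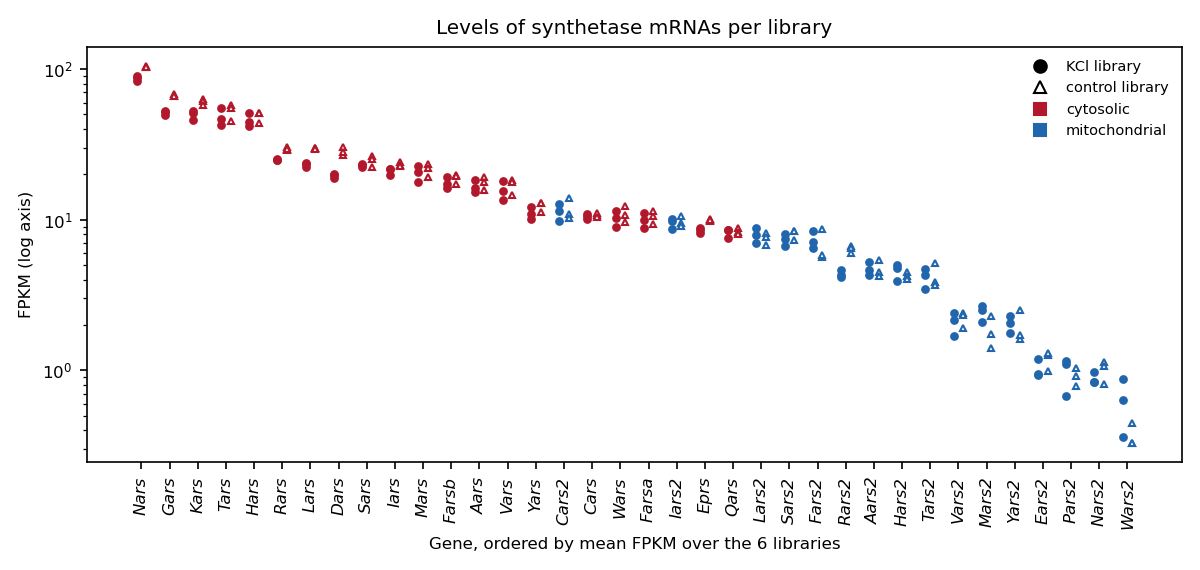
Level of each of the 36 synthetase mRNAs in FPKM (log axis), with filled circles for the 3 KCl libraries and open triangles for the 3 control libraries, cytosolic genes in red and mitochondrial genes in blue. Nars is at the top with 95.4 FPKM and Wars2 at the bottom with 0.496 FPKM, and most cytosolic genes lie to the left of the mitochondrial ones.

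Some cytosolic synthetase mRNAs fell in high potassium, and none rose. Over both sets 8 of 36 genes (22.2%) passed with all 6 libraries, about the same share as the 22.9% of all tested genes that passed in either direction, and all 8 were lower in KCl. With all 6 libraries, 7 of the 20 cytosolic genes fell (35.0%), against 10.5% of all tested genes that were lower in KCl. None of the 20 was called higher in KCl, against 12.4% of all tested genes, and 13 did not pass. At an unadjusted p under 0.05, 8 were lower and 0 higher. The share of all tested genes at this unadjusted threshold was not counted, here or below. DESeq2 and limma-voom also called 7 lower and 0 higher. The 7 that fell were Dars, Gars, Lars, Kars, Nars, Rars and Eprs. All 20 log2 fold changes were below 0, from -0.52 to -0.00, with a median of -0.10 beside -0.00 for all tested genes. The number below 0 was 17 to 20 when each single library was left out.

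Without KCl 4 and control 4, none of the 36 synthetases passed, at a background of 0.458% of genes called in either direction. The lowest adjusted p was 0.0772 among the cytosolic genes and 0.0708 among the mitochondrial ones. At an unadjusted p under 0.05, 12 cytosolic genes were then lower and 0 higher, with no background counted at that threshold. All 20 cytosolic log2 fold changes were again below 0, with a median of -0.22. In the following, a gene is said to have fallen where it passed with all 6 libraries.

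Dars, which encodes the aspartyl-tRNA synthetase of the multisynthetase complex, had levels, in CPM (counts scaled to library size by TMM), of 90.8, 98.9 and 95.3 in KCl 1, 2 and 4, against 146, 128 and 135 in control 1, 2 and 4. Its highest KCl library was well below its lowest control library. It fell by 30.2%. The log2 fold change was -0.52 ± 0.07 (± SE, 3 libraries per group), with an adjusted p of 0.00516 by edgeR's quasi-likelihood test.

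Gars encodes the glycyl-tRNA synthetase, which serves both the cytosol and the mitochondria. It had 191, 188 and 189 CPM in the KCl libraries, against 246, 240 and 240 CPM in the control libraries. Libraries of each group lay close together and the groups were far apart. Gars fell by 21.8% (log2 fold change -0.35 ± 0.04, adjusted p 0.00422).

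Lars encodes the leucyl-tRNA synthetase, which also reports leucine to the growth kinase mTORC1. Its values were 91.6, 89.2 and 89.9 CPM in KCl, against 114, 114 and 113 CPM in control. These groups again did not overlap, and the spread within each was small. Lars fell by 20.9% (log2 fold change -0.34 ± 0.04, adjusted p 0.00488).

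Kars encodes the lysyl-tRNA synthetase, like Gars a gene for both compartments. Its level was 134, 127 and 138 CPM in KCl, against 167, 161 and 153 CPM in control, and its log2 fold change was -0.27 ± 0.06 (adjusted p 0.0188). Nars, the most abundant synthetase, had 234, 229 and 229 CPM in KCl, against 274, 269 and 271 CPM in control, a log2 fold change of -0.23 ± 0.04 (adjusted p 0.0110). In both genes every KCl library was below every control library, with the narrowest gap in Kars, between KCl 4 and control 4.

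Rars, for arginine, had 97.4, 103 and 98.9 CPM in KCl, against 114, 119 and 116 CPM in control (log2 fold change -0.22 ± 0.05, adjusted p 0.0207). Eprs, a fused enzyme that charges both glutamate and proline tRNAs, had 183, 180 and 179 CPM in KCl, against 206, 211 and 208 CPM in control (log2 fold change -0.20 ± 0.04, adjusted p 0.0168). These were the smallest of the 7 decreases on the log2 scale, and their groups did not overlap.

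The 7 calls were not equally firm, and 3 of them remained without KCl 4 alone and 4 without control 4 alone. Dars, Gars and Lars passed whichever single library was left out. Eprs did not pass without KCl 4 or without control 4 (adjusted p 0.0773 to 0.0851), and neither did Nars (0.0558 to 0.0605). Kars did not pass without KCl 1, KCl 4 or control 1 (0.0512 to 0.0604). Rars did not pass without KCl 1, KCl 4, control 2 or control 4 (0.0579 to 0.0914).

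Among the 13 other cytosolic genes, log2 fold changes lay between -0.14 and -0.00, with adjusted p from 0.136 to 0.981. Iars, for isoleucine, had every KCl library below every control library, at 146, 139 and 145 CPM in KCl against 160, 155 and 152 CPM in control, but did not pass (log2 fold change -0.12 ± 0.05, adjusted p 0.136). With it, 8 of the 20 cytosolic genes (40.0%) had no overlap in this direction, against 18.4% of all tested genes. The other log2 fold changes were -0.14 for Yars, -0.11 for Tars, -0.10 for Vars, and -0.08 for Wars, Sars and Farsb. They were -0.07 for Hars and Aars, -0.06 for Farsa and Mars, -0.01 for Cars and -0.00 for Qars. Farsa and Farsb encode the subunits of one phenylalanyl enzyme and had nearly equal values. No cytosolic gene had every KCl library above every control library, a pattern found in 20.2% of all tested genes.

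**Figure D2:**
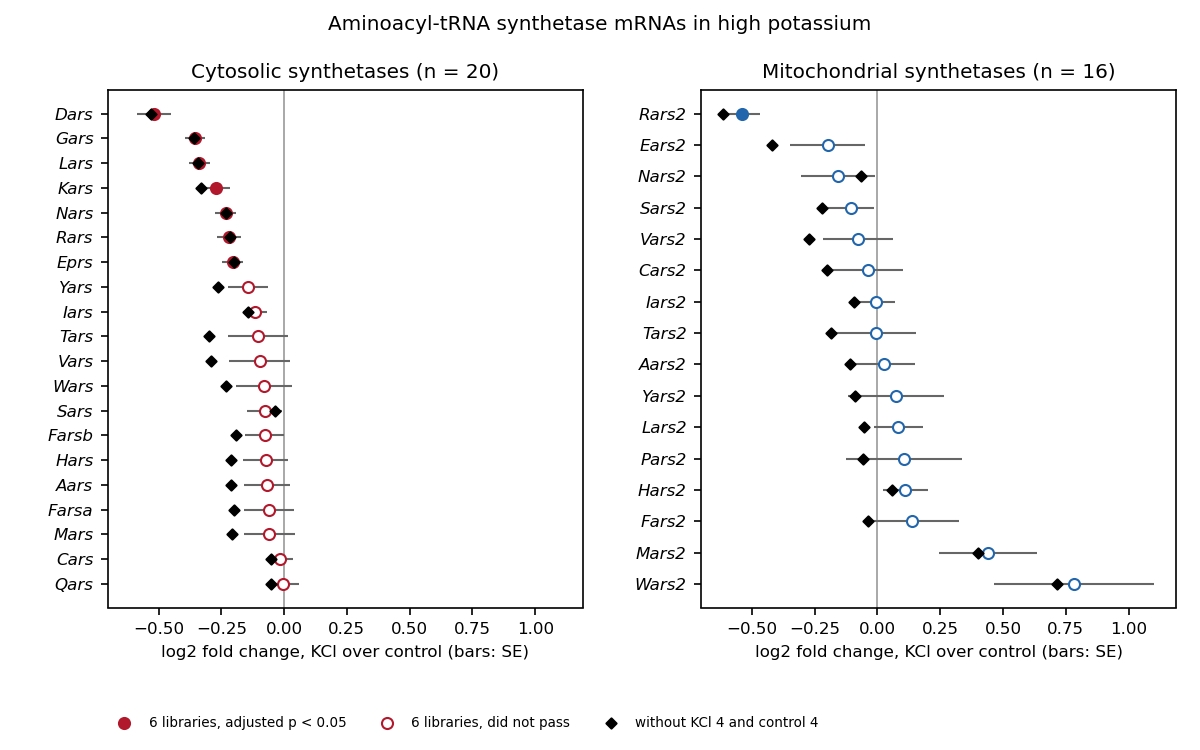
Log2 fold change of KCl over control for the 20 cytosolic (left) and 16 mitochondrial (right) synthetases, with circles for all 6 libraries (filled where the adjusted p was under 0.05, bars for the SE) and black diamonds for the fit without KCl 4 and control 4. All 20 cytosolic genes lie below 0 in both fits, while the mitochondrial genes lie on both sides of 0 with Rars2 as the only filled circle.

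A promoter window of 250 bases before to 50 after the start was taken from RefSeq (GRCm38.p6) for 13 of the 20 cytosolic genes and 14 of the 16 mitochondrial genes. Both strands were searched for TGATGNAA, the core of the element bound by ATF4 with C/EBP proteins, and for CACGTG, the E-box bound by MYC, which do not overlap in the windows below. TGATGNAA was found in 5 of 13 cytosolic windows (Aars, Gars, Iars, Tars and Yars), in 0 of 14 mitochondrial genes and in 4.51% of 27025 genes. CACGTG was found in 4 of 13 cytosolic genes (Aars, Farsb, Iars and Tars), in 1 of 14 mitochondrial genes (Ears2) and in 8.09% of all genes. The upstream stretches of Gars, Aars and Tars are printed because they carry the ATF4-type core, with the match in capitals. They are read 5′ to 3′ on the strand of the gene, so the core appears as its reverse complement.
Gars, chr6:55037941-55038000, plus strand: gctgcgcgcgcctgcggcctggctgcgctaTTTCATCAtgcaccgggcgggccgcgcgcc
Aars, chr8:111033700-111033767, plus strand: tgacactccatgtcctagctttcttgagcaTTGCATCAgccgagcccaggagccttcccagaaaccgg
Tars, chr15:11399659-11399703, minus strand: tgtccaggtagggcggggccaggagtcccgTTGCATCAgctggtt

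A match is only a run of letters and says nothing of binding in these cells. Of the 5 cytosolic genes with the core, 1 fell (Gars), and their median log2 fold change was -0.12. Of the 8 with a window and no core, 3 fell (Dars, Eprs and Kars), with a median of -0.08. Among all tested genes 10.5% were lower in KCl. Lars, Nars and Rars also fell but had no window, so this split leaves them out.

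Mitochondrial synthetase mRNAs lay on both sides of 0. With all 6 libraries 1 of the 16 fell (6.25%) and 0 rose, beside the 10.5% and 12.4% of all tested genes, and 8 were below 0 and 8 above. At an unadjusted p under 0.05, 1 was lower and 1 higher, again with no background counted at that threshold. The median log2 fold change was 0.01 with all 6 libraries. Without KCl 4 and control 4 it was -0.09, with 13 of 16 genes below 0 and, at an unadjusted p under 0.05, 2 lower and 0 higher.

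Rars2, which encodes the mitochondrial arginyl-tRNA synthetase, was the gene that fell. It had 15.3, 16.3 and 16.9 CPM in KCl 1, 2 and 4, against 24.4, 23.9 and 22.2 CPM in control 1, 2 and 4. The lowest control library lay well above the highest KCl library. Rars2 fell by 31.3% (log2 fold change -0.54 ± 0.07, adjusted p 0.00581) and passed whichever single library was left out.

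Wars2 and Mars2, for tryptophan and methionine, had the highest log2 fold changes of the mitochondrial set, and neither passed. Wars2 rested on few reads, with 155, 60 and 106 counts in KCl against 86, 66 and 43 counts in control. Its level was 8.14, 3.50 and 5.86 CPM in KCl against 4.10, 3.02 and 3.04 CPM in control, a log2 fold change of 0.78 ± 0.32 (adjusted p 0.142). KCl 2 lay within the control range, and without that library the adjusted p was 0.0372. Mars2 had 23.5, 31.1 and 28.1 CPM in KCl against 15.7, 25.6 and 19.6 CPM in control, with overlapping groups (log2 fold change 0.44 ± 0.20, adjusted p 0.175). Its adjusted p was 0.0469 without control 2.

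The 13 other mitochondrial genes had log2 fold changes between -0.20 for Ears2, the glutamyl enzyme, and 0.14 for Fars2, the phenylalanyl enzyme. Iars2, for isoleucine, the gene of the set with the most counts, had -0.01. Across the set, counts per library ranged from 43 to 2582, against 655 to 5885 for the cytosolic set, so counting error was larger for the mitochondrial genes. Tarsl2, a threonyl-like enzyme of the cytosol that lay outside the symbols searched, had a log2 fold change of -0.04 ± 0.09 (adjusted p 0.822).

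Summed over the set, the cytosolic mRNAs came to 2443 ± 92.7 CPM in KCl and 2751 ± 123 CPM in control (mean ± SD, n = 3 each). The mitochondrial mRNAs came to 384 ± 27.5 CPM in KCl and 380 ± 27.7 CPM in control. The cytosolic sums did not overlap, with 2428, 2358 and 2542 CPM in KCl 1, 2 and 4 against 2863, 2770 and 2620 CPM in control 1, 2 and 4. The mitochondrial sums did. In bulk RNA, fewer cells of a type and less RNA per cell cannot be told apart.

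The libraries did not all show the same picture. Taking libraries with the same number together, the log2 level of KCl 1 minus control 1 was below 0 for 20 of 20 cytosolic genes (median -0.22), and that of KCl 2 minus control 2 for 19 of 20 (median -0.23), Sars being the exception. For KCl 4 minus control 4 it was below 0 for 9 of 20 (median 0.08). Among all tested genes 51.0%, 49.6% and 48.7% were below 0 in these differences. The 9 were the 7 genes that fell, with Iars and Sars. KCl 4 and control 4 were not independent of the other libraries, so number 4 is not a separate comparison.

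The other 11 cytosolic genes, Aars, Cars, Farsa, Farsb, Hars, Mars, Qars, Tars, Vars, Wars and Yars, were lower in KCl for numbers 1 and 2 and higher for number 4. Tars shows the pattern, with 123, 117 and 145 CPM in KCl 1, 2 and 4 against 150, 145 and 119 CPM in control 1, 2 and 4. Of the 16 mitochondrial genes, 7 had this pattern. The mitochondrial set had 11, 11 and 2 of 16 genes below 0 for numbers 1, 2 and 4, with medians of -0.16, -0.09 and 0.30. Rars2 and Nars2 were the 2 that were below 0 for number 4.

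**Figure D3:**
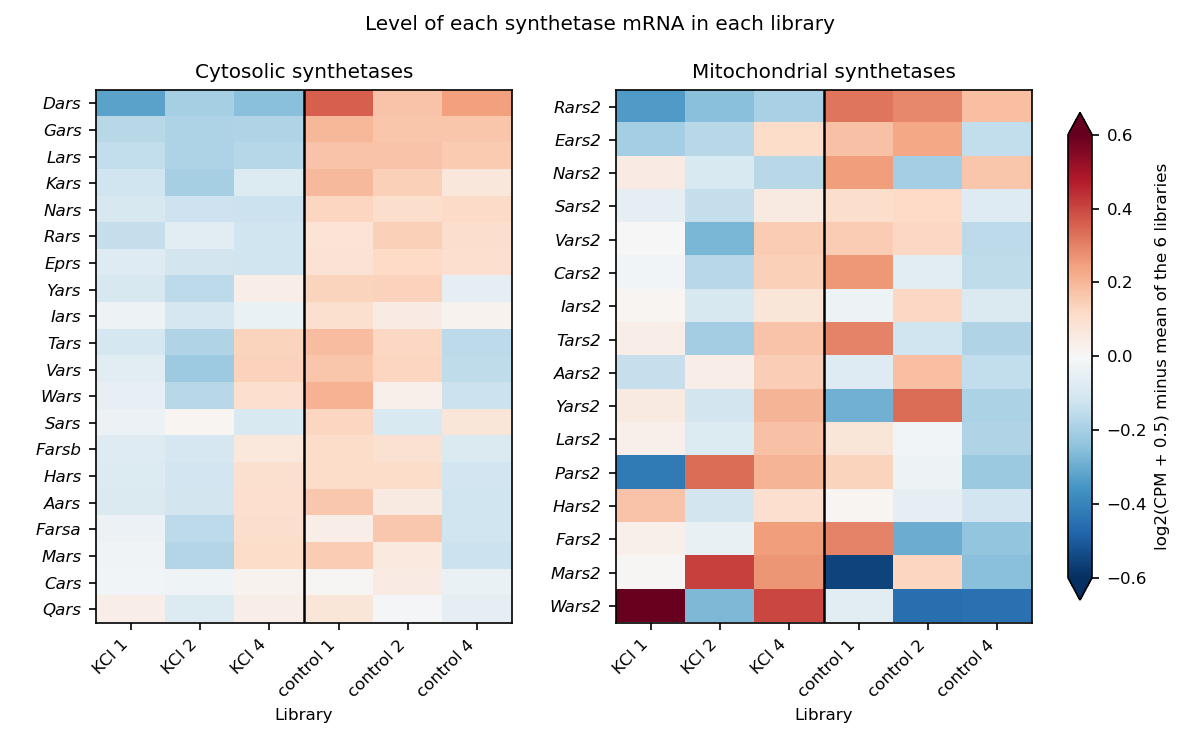
Level of each synthetase mRNA in each library as log2(CPM + 0.5) minus the gene's mean over the 6 libraries (blue lower, red higher), with the 3 KCl libraries left of the line and the 3 control libraries right of it. The upper cytosolic genes are blue in all 3 KCl libraries, whereas most of the lower ones are red in KCl 4 and blue in control 4.

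**Figure D4:**
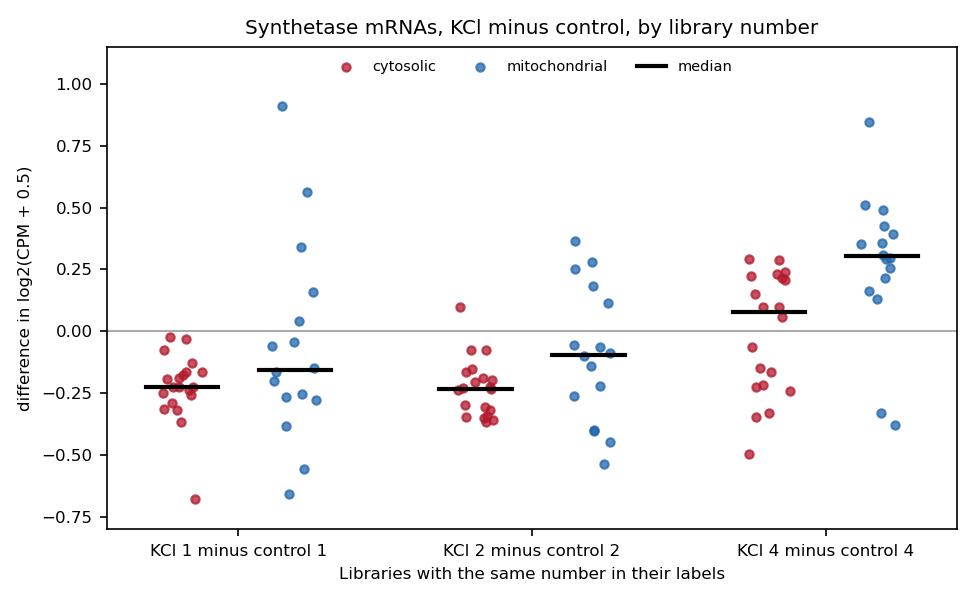
Difference in log2(CPM + 0.5) between the KCl and the control library of the same number, with one point per gene and a black line at the median of each set. The cytosolic medians are -0.22, -0.23 and 0.08 and the mitochondrial medians are -0.16, -0.09 and 0.30 for numbers 1, 2 and 4.

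Set against each other within an amino acid, the cytosolic gene had the lower log2 fold change in 13 of 16 pairings with a mitochondrial partner. The median difference, cytosolic minus mitochondrial, was -0.10 with all 6 libraries. Without KCl 4 and control 4 it was -0.14, with 12 of 16 below 0. It ranged from -0.86 for tryptophan, where Wars2 had the higher fold change, to 0.32 for arginine. Farsa and Farsb share the partner Fars2, and genes are not replicates, so these counts describe the genes and were not tested.

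In 4 pairings the log2 ratio of the cytosolic to the mitochondrial gene did not overlap between the groups, 3 with all KCl libraries below and 1 with all above. Among the levels of single genes, 18.4% of all tested genes lay all below and 20.2% all above. The same share for ratios between genes was not computed, so how unusual these ratios were is not known. For leucine it was 1.57, 1.64 and 1.40 in KCl 1, 2 and 4, against 1.84, 1.94 and 2.08 in control 1, 2 and 4. The leucine ratio was thus lower in KCl in every library. For tryptophan it was 2.52, 3.51 and 3.11 in KCl, against 3.68, 3.89 and 3.72 in control. The histidine ratio was lower in KCl by a narrow margin. Arginine was the one amino acid whose ratio was higher in KCl without overlap, at 2.63, 2.63 and 2.51 in KCl against 2.197, 2.294 and 2.360 in control, since Rars2 fell by more than Rars.

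By position in the cell, 5 of the 8 synthetases of the multisynthetase complex fell (Dars, Eprs, Kars, Lars and Rars), with a median log2 fold change of -0.21, beside 10.5% of all tested genes that were lower. Iars, Mars and Qars, the other 3 of the complex, did not pass. Outside the complex 2 of 12 fell (Gars and Nars), with a median of -0.08. Without KCl 4 and control 4 the medians were alike, -0.21 for the complex and -0.22 outside it. The 2 groups of genes parted in number 4, the pair that was not independent of the other libraries. There the median of KCl 4 minus control 4 was -0.18 inside the complex and 0.18 outside it.

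By fold of the catalytic domain, 2 of 9 class I and 4 of 10 class II cytosolic genes fell, beside the same 10.5% of all tested genes, with medians of -0.10 and -0.09. Eprs, which joins both classes in one protein, stands apart from this count.

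Of the 3 scaffold genes, Aimp1 fell, with 39.3, 34.3 and 37.1 CPM in KCl against 55.9, 53.1 and 53.8 CPM in control (log2 fold change -0.56 ± 0.07, adjusted p 0.00460). This change was of the size of that of Dars. Aimp2 and Eef1e1 did not pass, with -0.09 and -0.14.

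Lists of neighbouring genes were read from the same test, and the background for each count is again 10.5% lower and 12.4% higher. Of all these lists, only Asns passed without KCl 4 and control 4. Of 28 genes of the ATF4 amino acid response, 12 fell, 3 rose and 13 did not pass, with a median log2 fold change of -0.22. Asns, which makes asparagine, the substrate of Nars, had 33.2, 31.7 and 34.6 CPM in KCl against 72.5, 66.1 and 67.7 CPM in control. Every KCl library held about the same low level. Asns had a log2 fold change of -1.05 ± 0.06 (adjusted p 0.00167) and an adjusted p of 0.0429 without KCl 4 and control 4.

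Psat1, a serine synthesis enzyme, fell by 0.51 on the log2 scale, and Mthfd2, a mitochondrial folate enzyme, fell by 0.41. Slc38a2, a carrier of neutral amino acids, rose by 0.69. Atf4 itself had 334, 322 and 321 CPM in KCl against 361, 364 and 364 CPM in control (log2 fold change -0.16 ± 0.04, adjusted p 0.0450). The list was therefore not of one direction. Eif2ak4, the sensor of uncharged tRNA, had -0.05 ± 0.06 (adjusted p 0.630). Of the 13 genes of that sensing list 2 fell, Eif2b3 (-0.42) and Eif2s1 (-0.18), which encode subunits of the initiation factors eIF2B and eIF2, and 0 rose.

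Of 23 genes of tRNA transcription and export, 4 fell and 1 rose. Polr3g and Polr3gl, which encode alternative subunits of RNA polymerase III, went opposite ways. Polr3g had 11.3, 8.57 and 10.3 CPM in KCl against 18.05, 19.05 and 18.43 CPM in control (log2 fold change -0.88 ± 0.11, adjusted p 0.00503). Polr3gl had 13.97, 14.2 and 13.4 CPM in KCl against 10.9, 10.9 and 11.2 CPM in control (0.34 ± 0.07, adjusted p 0.0153). Neither gene's groups overlapped. Polr3c, another polymerase subunit (-0.36), and Gtf3c3, of the factor TFIIIC (-0.27), also fell.

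Downstream of charging, 2 of 6 cytosolic elongation factor genes fell and 0 rose. They were Eef1a1 (-0.36), which delivers charged tRNA to the ribosome, and Eef1d (-0.37), which recharges that factor with GTP. Of 8 editing and selenocysteine genes, Eefsec (-0.36), the selenocysteine elongation factor, and Dtd1 (-0.40), which removes D-amino acids from tRNA, fell and 0 rose. Of 14 mitochondrial partners, Gfm2 (-0.39), for ribosome recycling, and Trmt10c (-0.26), for tRNA processing, fell and 0 rose. Interferon-gamma raises Wars in many cells, and of 11 tested genes of that response 3 fell (Tap1 -0.33, Gbp2 -0.63 and Gbp3 -0.31) and 0 rose.

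**Figure D5:**
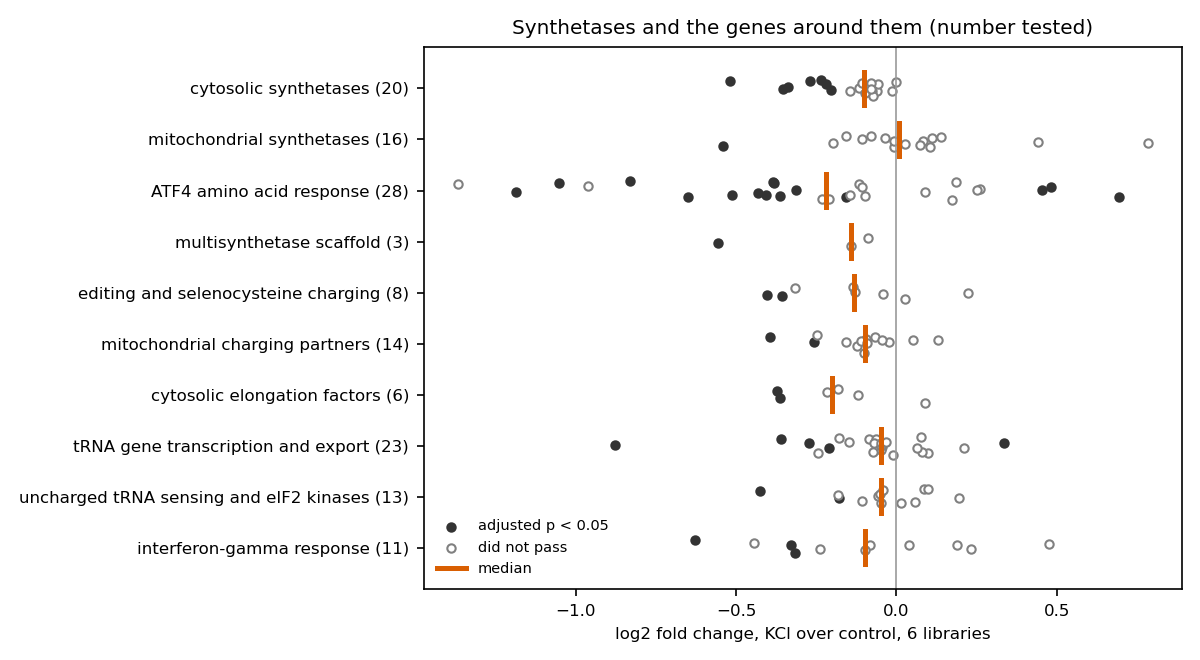
Log2 fold change of KCl over control for the cytosolic and mitochondrial synthetases and for lists of genes around them, with filled points for an adjusted p under 0.05 and an orange line at each median. The number of genes tested is given beside each list, and the ATF4 list has the lowest median at -0.22.

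Markers of cell types also differed between the groups, and the background for each count is again 10.5% lower and 12.4% higher. Genes of the labelled myeloid cells were abundant in every library, with a summed level of 14849 to 17963 CPM in KCl and 9819 to 11897 CPM in control. Of 10 markers each, neutrophil genes summed to 17154 to 24296 CPM in KCl and 14078 to 16003 CPM in control (3 rose, 0 fell). Monocyte and macrophage genes summed to 2455 to 2733 CPM in KCl and 1708 to 2057 CPM in control (5 rose, 0 fell). These myeloid sums were all higher in KCl without overlap, but not every gene in them was. Lyz2 made up most of the KCl sum of the labelled cells, with 8742, 11569 and 9515 CPM in KCl 1, 2 and 4. In that list, which holds Itgam under 2 IDs, 5 rose and 0 fell, and Csf2rb had every KCl library below every control library without passing. Among neutrophil genes, Retnlg, Cxcr2, Mmp8, Ly6g and S100a8 overlapped between the groups, and S100a8 had a log2 fold change of -0.05.

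Dendritic cell genes summed to 4123 to 5152 CPM in KCl and 5526 to 7439 CPM in control (5 of 10 fell, 0 rose). Eosinophil, basophil and mast cell genes summed to 1133 to 1278 CPM in KCl and 2458 to 2682 CPM in control (5 of 10 fell, 0 rose). Both sums were lower in KCl without overlap, but not every gene in them was. Of the eosinophil, basophil and mast cell genes, 6 had log2 fold changes below 0 and 4 above 0. Those above were Ms4a2, Siglecf, Ccr3 and Cpa3, whose groups overlapped and which did not pass. Of the dendritic cell genes, 9 were below 0 and 1 above, Cd209a, which did not pass. Lymphocyte genes summed to 13.0 to 19.3 CPM in KCl and 10.6 to 14.3 CPM in control (1 of 5 tested rose, 0 fell). Erythroid and megakaryocyte genes summed to 122 to 137 CPM in KCl and 100.1 to 158 CPM in control (of 3 tested, 0 rose and 0 fell). The T cell gene Trac was near 0, with 4 to 8 counts in KCl and 7 to 9 in control. Among all these markers, 3 eosinophil genes were lower and 1 macrophage gene higher without KCl 4 and control 4. The part of the cell mixture in the lower synthetase mRNAs was not tested.

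Coordinates are those of GRCm38 (mm10) in GENCODE. Dars lies on chromosome 1 from 128363707 to 128417368 and Kars on chromosome 8 from 111993443 to 112011323, both on the minus strand. Gars lies on chromosome 6 from 55038007 to 55079500 and Rars2 on chromosome 4 from 34614957 to 34660167, both on the plus strand. Eprs is on the plus strand of chromosome 1 from 185363044 to 185428360, and Rars on the minus strand of chromosome 11 from 35808381 to 35834506. Lars and Nars are both on the minus strand of chromosome 18, from 42202298 to 42262194 and from 64499647 to 64516652. Values are per gene, and which exons were counted is not given in the sources used here.

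Of the 36 genes, 13 share exon bases with another annotated gene, in 9 cases one of the table. None of the 8 genes that fell is among them. Hars and Hars2 run in opposite directions and share 195 exon bases. Iars2 shares 2034 exon bases, 22.9% of its own, with Rab3gap2 on the other strand, and Mars shares 68 with Ddit3. No source used here states whether counting used strand, so the levels of these genes carry that uncertainty. Aars shares 1326 exon bases, 14.3% of its own, with Exosc6 on the same strand, an overlap that a strand setting would not resolve.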

How the data were processed

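Messenger RNA of 6 mouse libraries, 3 KCl and 3 control, was grouped by the sample titles and treatment labels. The submitters' processing notes name the build mm10 and the tools edgeR, StringTie 1.3.3b and HISAT2 2.0.4. Which program counted reads, and with which strand setting, is not given in the sources used here. For every gene and library the authors deposited an FPKM and a raw count. FPKM was used for levels between genes and in no test. Deposited counts were filtered with filterByExpr (minimum count 10, total 15), scaled by TMM and tested, 2-sided, with the robust quasi-likelihood test of edgeR 4.0.16 in R 4.3.3, with Benjamini-Hochberg adjustment over all tested genes and a threshold of 0.05. The test was checked on simulated counts. Log2 differences between single libraries used CPM + 0.5. Of 19162 gene IDs, 19049 matched GENCODE M21.

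Members, lists, motifs and tests were chosen with earlier results of these data known. Per-library values were given for members that passed. From each other list except the cell type markers, up to 4 genes of smallest p that passed were named, with Asns, Atf4 and Eif2ak4. Marker genes were named outside this rule, and most of those named did not pass. Examples that did not pass (Iars, Wars2, Mars2, Tars) and the extra gene Tarsl2 were chosen after their values were seen. A few genes are not reported here. Alternatives tried were upper-quartile, RLE and library-size scaling, 2 other filters, a replicate block, a term for number 4, DESeq2 1.42.0, limma-voom (limma 3.58.1) and libraries left out.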

Additional observations from a re-analysis of the deposited data

How the results depend on the processing

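Over 16 alternatives no synthetase that passed changed sign. RLE, upper-quartile and library-size scaling, both filters, DESeq2 and limma-voom kept 7 cytosolic and 1 mitochondrial gene lower and 0 higher. A minimum mean of 5 CPM left out Wars2. Without KCl 4 and control 4, 62 genes passed in all, with 0 cytosolic and 0 mitochondrial synthetases lower, and the cytosolic median was -0.22. With 1 library left out, 1439 to 2851 genes passed in all. Cytosolic genes lower numbered 3 to 7 (3 without KCl 4, 4 without control 4) and mitochondrial genes higher 0 to 1 (Wars2 without KCl 2, Mars2 without control 2). With number 4 as a batch term, 1573 genes passed in all and 3 cytosolic synthetases. The cause of these drops was not tested.

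Same-numbered libraries did not deviate together (correlations of 0.02, -0.06 and -0.89 for numbers 1, 2 and 4 over 13326 genes), so the number was not taken to pair the samples. The tie between KCl 4 and control 4 is an opposite deviation, in the pair already described as not independent. With the replicate block 1678 genes passed in all, 3 cytosolic synthetases lower (Dars, Gars and Lars) and 1 mitochondrial (Rars2). Upper-quartile scaling lowered the median of all genes to -0.05, and that of the mitochondrial set to -0.04. Depth limited Wars2 most, with as few as 43 counts in a library.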
